A study of Homo sapiens with 9 samples.

Results

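The genes described here are the cytosolic aminoacyl-tRNA synthetases and the factors that start and lengthen proteins on the ribosome, with the kinases and binding proteins that carry the same family symbols. Members were all genes whose symbol marks them as a synthetase with the ending ARS, ARS1 or ARS2, or begins with EPRS, EIF1 to EIF6, EEF1 or EEF2. Of 12155 genes tested on the arrays, 54 were members, and all 54 members with a named probe set reached the floor for testing, a log2 intensity of at least 5 on 3 or more of the 9 arrays. A further 54 genes that match by symbol had no named probe set here and were not analysed. They include all 17 mitochondrial synthetases, so that the comparison of cytosolic with mitochondrial enzymes could not be made, and 30 initiation factors, among them the subunits of eIF2, eIF2B and eIF3.

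RNA came from EA.hy926, an established line made by fusing human umbilical vein endothelial cells with the A549 lung carcinoma line, so it is a single hybrid line and not primary endothelium. A first group of 3 arrays held RNA of cells given 5 nm silver nanoparticles, a second group of 3 those given 100 nm silver nanoparticles, and 3 control arrays had RNA of unexposed cells. Both exposures ran for 6 h at a concentration near the LD50, and no source used here gives the mass dose. No label says whether the replicates were cultured separately, and the p-values below therefore reflect the spread between arrays, some of which may be technical.

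Aminoacyl-tRNA synthetases join each amino acid to its tRNA before the ribosome can use it. When amino acids run short, proteins misfold or heme is lacking, 1 of 4 kinases phosphorylates eIF2, general initiation slows and translation of the transcription factor ATF4 goes up. This is the integrated stress response, and ATF4 then raises transcription of amino acid enzymes, transporters and many cytosolic synthetases through C/EBP-ATF response elements, while mitochondrial synthetases are mostly not its targets. Members were therefore grouped by general knowledge, but with earlier results of these data known. The groups were 13 ATF4-driven cytosolic synthetases, 4 other cytosolic synthetases, 15 initiation factors and 7 elongation factors. The rest were 3 modifiers of elongation factors, 7 kinases and binding proteins, and 5 pseudogene, antisense or readthrough members.

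The response element was searched in promoters as TGATGNAA, where N is any base, on both strands of the 250 bases before to 50 after each start of transcription in RefSeq (GRCh38.p14). Of the 13 ATF4-driven synthetases, 10 had a promoter in the table and 7 of these held the motif in a listed window. By window, 7 of 15 held it, against 2.27% of the windows of all tested genes. No match was found in the promoters of the 4 other cytosolic synthetases, of 5 elongation factors or of 5 kinases and binding proteins. Of 15 initiation factors 1, EIF4E3, held it. Of 14 tested genes of the integrated stress response outside the family, 11 had a promoter, and 2 of these (ATF3 and ASNS) held the motif. DDIT3, SESN2, DDIT4 and TRIB3, which had the largest differences of that list, had no match. Over all tested genes with a promoter 273 of 9178 (2.97%) held the motif, and 1217 of 27305 genes (4.46%) did so over all listed promoters. A match is a string of letters and says nothing of whether ATF4 binds there. The 13 were grouped as known targets of ATF4, so a share above that of all genes may follow from that choice alone.

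The 7 matches are printed because these synthetases include those with the largest differences below. Each line is 30 bases read 5′ to 3′ on the strand of the gene, with the motif or its reverse complement in capitals. They lie at chr7:30594834-30594863 (plus strand, GARS1), chr11:3057407-3057436 (minus, CARS1), chr12:57488053-57488082 (plus, MARS1), chr16:70289675-70289704 (minus, AARS1), chr9:92293692-92293721 (minus, IARS1), chr5:33440956-33440985 (plus, TARS1) and chr18:57621804-57621833 (minus, NARS1).
GARS1: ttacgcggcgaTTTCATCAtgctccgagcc
CARS1: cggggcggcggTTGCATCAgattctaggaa
MARS1: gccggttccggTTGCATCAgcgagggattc
AARS1: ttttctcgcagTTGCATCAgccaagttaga
IARS1: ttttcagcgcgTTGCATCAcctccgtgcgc
TARS1: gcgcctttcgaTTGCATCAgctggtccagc
NARS1: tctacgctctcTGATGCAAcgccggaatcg

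Of these 7, NARS1 alone held the motif in the direction of the gene, and the other 6 held its reverse complement. For 6 of the 7 the match lay within 33 bases of an annotated start of transcription, and in AARS1 it spanned bases -187 to -180, counted from the start. GARS1, CARS1 and TARS1 each had 2 windows listed, of which 1 held the match. The whole promoter windows of GARS1 (chr7:30594628-30594927, plus strand, the second of 2 windows listed) and AARS1 (chr16:70289457-70289756, minus strand) show the motif in its context, again in capitals, at the near and the far position.
GARS1: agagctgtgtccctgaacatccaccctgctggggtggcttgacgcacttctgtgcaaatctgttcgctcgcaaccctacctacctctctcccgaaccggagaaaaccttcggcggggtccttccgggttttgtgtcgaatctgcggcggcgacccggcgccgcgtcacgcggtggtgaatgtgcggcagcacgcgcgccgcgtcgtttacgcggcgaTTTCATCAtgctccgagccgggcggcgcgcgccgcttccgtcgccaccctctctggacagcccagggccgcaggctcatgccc
AARS1: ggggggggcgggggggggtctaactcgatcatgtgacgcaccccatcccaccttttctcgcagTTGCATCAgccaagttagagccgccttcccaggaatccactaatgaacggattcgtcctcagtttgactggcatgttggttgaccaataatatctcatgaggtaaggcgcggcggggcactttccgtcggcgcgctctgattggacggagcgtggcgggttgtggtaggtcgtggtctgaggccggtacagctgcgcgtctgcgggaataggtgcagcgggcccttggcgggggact

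**Figure D1:**
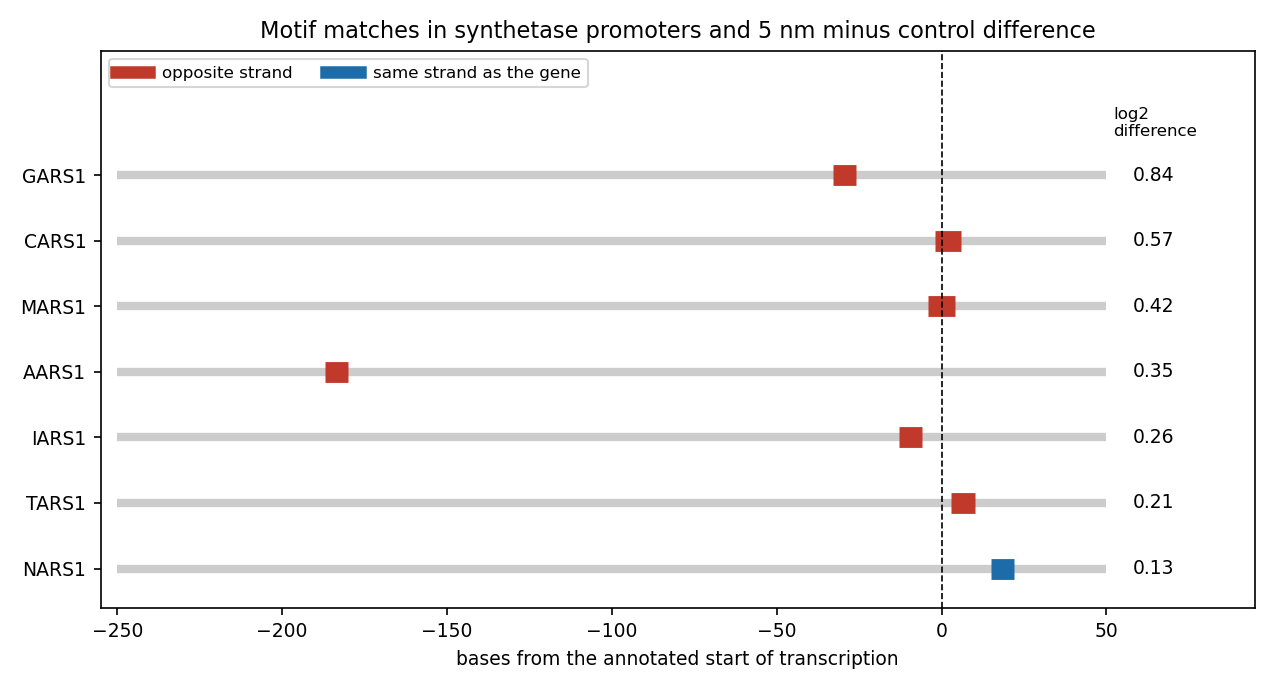
Position of the 8-base motif in the promoter windows of the 7 synthetases that hold it, in bases from the annotated start of transcription (dashed line), with the mean log2 difference of 5 nm minus control written at the right. Grey bars are the windows, red boxes are matches on the opposite strand and the blue box, in NARS1, is on the strand of the gene. In AARS1 the match spans bases -187 to -180 and in the other 6 it lies near the start.

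Values below are log2 intensities, and a difference of 1 is a doubling. A level is never compared between genes, since each probe set has its own brightness. Arrays of different groups resembled each other far more when they shared a replicate number. Over tested genes, with the group means taken off, r was 0.762 to 0.967 between such arrays. Between arrays that differed in both group and number it was -0.582 to -0.265. Taking off the group means itself pushes r below 0 between numbers when it is high within them, so that sign is no separate result. Arrays of the same group were not compared in this way. The 3 arrays of a number, 1 from each group, are therefore called a set, and differences are given within sets 1, 2 and 3 in that order. Between arrays of a set 39.8% to 65.9% of tested genes had exactly equal values, so that a difference of exactly 0 is common and need not mean that RNA levels were equal. The limma fit without a term for the sets keeps the offsets between sets in its residual spread. It was accompanied by a fit with the set as a fixed block and by one with the set as a random effect, with a correlation within sets of 0.973 assumed for all genes.

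After 5 nm particles, 12 of the 13 ATF4-driven cytosolic synthetases were higher than in controls on average, and 11 were higher in all 3 sets. Among all tested genes 8.03% were higher in all 3 sets. The median difference of the 13 was 0.35, against 0 for all tested genes, and by set it was 0.12, 0.53 and 0.12. Set 2 held the largest difference in 12 of the 13. With set 2 left out, the median was 0.16, and 11 of 13 were higher in both remaining sets, against 10.4% of all tested genes. By contrast, none of the 13 was higher or lower in all 3 sets after 100 nm particles, and their median difference there was 0.0036. Both comparisons share the same 3 control arrays.

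None of the 54 members passed an adjusted p of 0.05 in limma after 5 nm particles, where 0.0740% of tested genes did, or in the fit with the set as a block, where 0.650% did. At an unadjusted p under 0.05, 1 member (GARS1) passed without the block, against 1.65% of tested genes, and 8 passed with the block (6 higher and 2 lower), against 14.3% of tested genes. With the set as a random effect, which called 7.29% of tested genes, 6 members passed: GARS1, AARS1, WARS1, EIF5 and EIF2AK3 higher, and EIF2D lower. The differences below are therefore given with their values per array, and the tests are limma with Benjamini-Hochberg adjustment over all tested genes.

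GARS1 showed the largest difference of any member. It encodes the glycyl-tRNA synthetase of both the cytosol and the mitochondria. The log2 intensity of GARS1 was 10.81, 11.42 and 10.32 in 5 nm cells, 10.17, 10.21 and 9.58 in 100 nm cells, and 10.21, 10.16 and 9.65 in control cells. Every 5 nm array lay above every control array and every 100 nm array, and the 100 nm and control arrays overlapped. GARS1 was the only one of the 54 members whose 5 nm arrays all lay above the control range, against 1.41% of tested genes, and no member lay wholly below it, against 0.469%. Within sets 1, 2 and 3 GARS1 was higher by 0.60, 1.26 and 0.67, a mean of 0.84 or 1.79-fold (95% interval 0.44 to 1.24 with the block, and 0.15 to 1.53 without it). Its unadjusted p in limma was 0.0213 and its adjusted p 1, with the block the adjusted p was 0.121, and with the random effect 0.00671. Over 12 block fits in limma that each left out an array or a whole set, the adjusted p of GARS1 was 0.022 without the 5 nm array of replicate 2 and 0.108 to 0.535 in the other 11.

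AARS1, the alanyl-tRNA synthetase, had a smaller difference that was present in every set. Its log2 intensity was 11.40, 11.08 and 10.64 in 5 nm cells, 11.14, 10.54 and 10.34 in 100 nm cells, and 11.18, 10.55 and 10.33 in control cells. The groups overlapped because the sets differ in level, and within each set the 5 nm array was the highest. AARS1 was higher by 0.22, 0.53 and 0.31, a mean of 0.35 or 1.28-fold (95% interval 0.16 to 0.54 with the block). The adjusted p was 1 in limma without the block, 0.143 with it and 0.0151 with the random effect. In the same 12 block fits it was 0.0378 without the 5 nm array of replicate 2 and 0.142 to 0.565 otherwise.

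WARS1 encodes the cytosolic tryptophanyl-tRNA synthetase, which interferon also induces. The log2 intensity of WARS1 was 8.82, 8.94 and 8.35 in 5 nm cells, 8.37, 8.17 and 8.21 in 100 nm cells, and 8.39, 8.14 and 8.20 in control cells. Of the 5 nm arrays 2 lay above all controls, and the third lay just below the highest control. The mean difference of WARS1 was 0.46 (95% interval 0.09 to 0.84 with the block, adjusted p = 0.265 in limma with the block and 0.0377 with the random effect). A second probe set of WARS1, close to the floor, differed by 0, 0 and 0.12, so the 2 probe sets of this gene did not show the same size of difference.

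CARS1, the cysteinyl enzyme, had the second largest mean among synthetases, and it rested mainly on set 2. Its log2 intensity was 8.68, 8.69 and 7.96 in 5 nm cells, 8.35, 7.50 and 7.84 in 100 nm cells, and 8.35, 7.45 and 7.84 in control cells. CARS1 was higher by 0.33, 1.25 and 0.12, a mean of 0.57 or 1.48-fold, and its interval with the block (-0.13 to 1.26) held 0. MARS1, the methionyl enzyme, showed the same unevenness, with 10.45, 10.65 and 9.66 in 5 nm cells, 10.13, 9.80 and 9.61 in 100 nm cells, and 10.18, 9.72 and 9.61 in control cells. The differences of MARS1 were 0.27, 0.93 and 0.06, with a mean of 0.42.

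For the seryl enzyme SARS1 the log2 intensity was 10.18, 10.59 and 9.28 in 5 nm cells, 9.88, 9.75 and 9.08 in 100 nm cells, and 9.95, 9.74 and 9.13 in control cells. SARS1 was higher by 0.23, 0.85 and 0.15 (mean 0.41). For the tyrosyl enzyme YARS1 it was 8.76, 8.64 and 8.17 in 5 nm cells, 8.65, 7.84 and 7.99 in 100 nm cells, and 8.64, 7.84 and 7.99 in control cells. YARS1 was higher by 0.12, 0.80 and 0.17 (mean 0.37). In both genes, as in CARS1 and MARS1, the groups overlapped across sets and set 2 gave by far the largest difference.

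The isoleucyl enzyme IARS1 had log2 intensities of 11.48, 11.50 and 10.92 in 5 nm cells, 11.41, 11.10 and 10.66 in 100 nm cells, and 11.38, 11.04 and 10.71 in control cells. It was higher by 0.10, 0.46 and 0.21, a mean of 0.26 (95% interval 0.05 to 0.47 with the block, adjusted p = 0.264 in limma with the block). The remaining ATF4-driven enzymes formed the low end of a graded range. The threonyl enzyme TARS1 was higher by 0.049, 0.47 and 0.10, and the asparaginyl enzyme NARS1 by 0.027, 0.32 and 0.059. EPRS1, which joins the glutamyl and prolyl enzymes in a single protein, was higher by 0.043, 0.30 and 0.037. The adjusted p of EPRS1 in limma with the block was 0.0134 without the 5 nm array of replicate 2, at a difference of 0.04, and 0.108 to 0.733 in the other 11 fits. The leucyl enzyme LARS1, which also senses leucine for mTORC1, differed by 0, 0.15 and 0.0053. The valyl enzyme VARS1 differed by 0, -0.017 and -0.0072, the only negative mean (-0.0081) of the 13. That sign turned when each array was centred on its median (0.022) and with quantile normalization over all arrays (0.017).

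**Figure D2:**
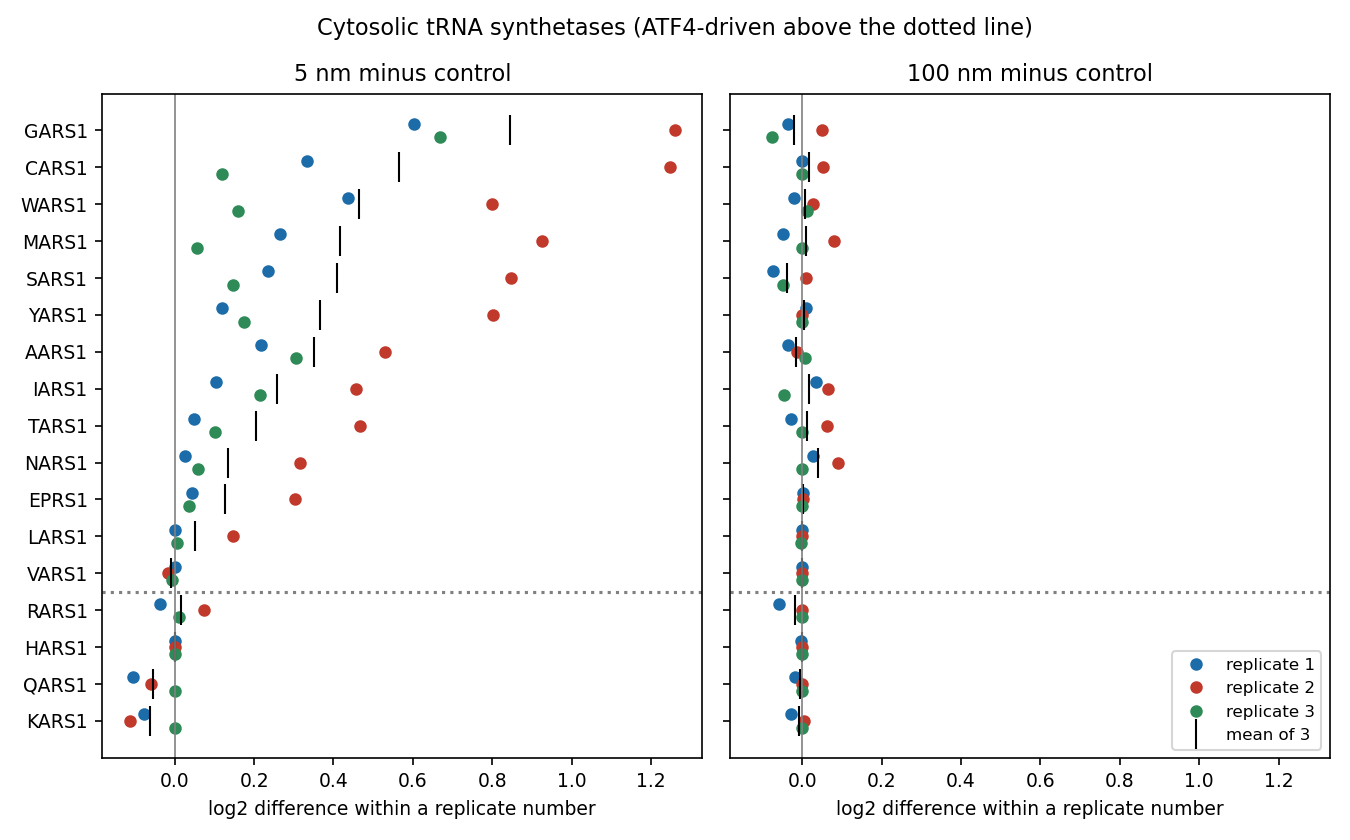
Log2 difference from the control array of the same replicate number for 17 cytosolic synthetases, after 5 nm particles on the left and 100 nm particles on the right; points are the 3 sets, black bars their mean, and the dotted line divides the 13 ATF4-driven enzymes from 4 others. After 5 nm particles the means run from 0.84 in GARS1 to -0.0081 in VARS1 with set 2 the highest point in 12 of the 13 enzymes, and after 100 nm particles all points lie near 0.

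The 4 other cytosolic synthetases had values close to control after 5 nm particles. None was higher or lower in all 3 sets, and their median was -0.027, which became 0.0028 when each array was centred on its median. KARS1, the lysyl enzyme of both cytosol and mitochondria, had a log2 intensity of 11.15, 10.52 and 10.16 in 5 nm cells, 11.20, 10.64 and 10.16 in 100 nm cells, and 11.23, 10.64 and 10.16 in control cells. The differences of KARS1 from control were -0.077, -0.11 and 0. The glutaminyl enzyme QARS1 differed by -0.10, -0.061 and 0, and the arginyl enzyme RARS1 by -0.037, 0.073 and 0.01, a mean of 0.016 that became -0.026 with quantile normalization. HARS1, the histidyl enzyme, was exactly equal in 5 nm and control arrays of every set. No test was made of the difference between the 4 and the 13, since the lists were drawn up with earlier results known.

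Relatives of the synthetases outside the symbol rule were looked at beside them. Of 8 listed, 4 were tested, and none was higher or lower in all 3 sets after 5 nm particles. Their mean differences were 0.022 for AIMP1, a scaffold of the multi-synthetase complex, 0.020 for TARS3, a threonyl enzyme of the cytosol, -0.060 for QRSL1 and -0.073 for GATB, which make mitochondrial glutaminyl-tRNA.

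Among initiation factors, EIF5 had the largest difference. It is the protein that makes eIF2 hydrolyse GTP once a start codon is found. The log2 intensity of EIF5 was 10.75, 10.52 and 9.67 in 5 nm cells, 10.32, 9.51 and 9.02 in 100 nm cells, and 10.41, 9.43 and 9.11 in control cells. In every set the 5 nm array was the highest, but the groups overlapped across sets. EIF5 was higher by 0.34, 1.09 and 0.56, a mean of 0.66 or 1.58-fold (95% interval 0.25 to 1.08 with the block). Its adjusted p was 1 in limma without the block, 0.178 with it and 0.0178 with the random effect. GARS1 and EIF5 were the 2 members higher by at least 0.3 in all 3 sets, against 1.71% of tested genes.

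EIF1AD, an eIF1A-domain protein, had 10.36, 10.17 and 9.26 in 5 nm cells, 10.10, 9.29 and 9.16 in 100 nm cells, and 10.10, 9.20 and 9.16 in control cells. Its differences of 0.26, 0.98 and 0.10 had a mean of 0.44, and the interval with the block (-0.083 to 0.97) held 0. EIF2D, a factor that can deliver tRNA to the ribosome without eIF2 and helps recycle ribosomes, went the other way. The log2 intensity of EIF2D was 9.30, 8.83 and 8.88 in 5 nm cells, 9.49, 8.99 and 9.13 in 100 nm cells, and 9.44, 8.99 and 9.08 in control cells. The 5 nm array was the lowest of its set each time. The differences of EIF2D were alike in size, -0.14, -0.16 and -0.21, with a mean of -0.17 (95% interval -0.225 to -0.11 with the block). In limma its adjusted p was 1 without the block, 0.068 with it and 0.017 with the random effect. In the 12 block fits it was 0.0454 without the 5 nm array of replicate 3 and 0.0723 to 0.449 otherwise.

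The 15 initiation factors as a group had 9 higher and 6 lower means and a median of 0.052. In all 3 sets 3 were higher and 1 lower, against 8.03% and 13.4% of all tested genes. The group also counts EIF1AD, EIF4ENIF1 and EIF4A3, which carry EIF symbols but are not initiation factors in the strict sense. Of the cap-binding proteins, EIF4E was higher by 0.076, 0.31 and 0.016. EIF4ENIF1, which carries eIF4E into the nucleus, differed by 0, -0.39 and 0. EIF4A3, the helicase of the exon junction complex, differed by 0, 0.21 and 0.13, and EIF1, which guards start codon choice, by 0.027, 0.285 and 0. EIF5B, EIF4H, EIF4B, EIF6, EIF1B, EIF4E2, EIF4E1B and EIF4E3 had means between -0.025 and 0.086.

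The differences of the elongation factors were small. EEF2, which moves the ribosome along the mRNA, had a log2 intensity of 13.19, 13.00 and 12.72 in 5 nm cells, 13.15, 12.94 and 12.52 in 100 nm cells, and 13.15, 12.94 and 12.58 in control cells. It was higher by 0.035, 0.061 and 0.14, a mean of 0.079 that became -0.13 with quantile normalization over all arrays. EEF1A1, which brings charged tRNA to the ribosome, differed by -0.011, -0.08 and 0.047. The mean of EEF1A1 was -0.014 and turned to 0.016 with centring and 0.034 with quantile normalization. EIF5A, the hypusine-bearing factor that relieves stalled ribosomes, differed by 0.24, 0 and 0, and its paralogue EIF5A2 by 0, 0 and -0.19. The 7 elongation factors had a median of 0.013, with 4 means higher and 3 lower. Of the 3 lysine methyltransferases of eEF1A, EEF1AKMT3 differed by -0.024, -0.26 and -0.034, EEF1AKMT2 had a mean of -0.035 that became 0.00059 with quantile normalization, and EEF1AKMT1 was exactly equal in every set.

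The 4 kinases that phosphorylate eIF2 differed in direction, with EIF2AK3 higher and the other 3 lower on average. EIF2AK3, known as PERK, which senses misfolded protein in the endoplasmic reticulum, had a log2 intensity of 7.77, 8.02 and 7.28 in 5 nm cells, 7.19, 7.15 and 7.12 in 100 nm cells, and 7.35, 7.22 and 7.07 in control cells. Its 5 nm arrays of replicates 1 and 2 lay above all controls, and every 5 nm array lay above every 100 nm array. Among the 54 members the latter held for GARS1 and EIF2AK3 only, against 167 of 12155 tested genes. EIF2AK3 was higher by 0.42, 0.80 and 0.21, a mean of 0.48 or 1.39-fold (95% interval 0.08 to 0.88 with the block). Its adjusted p in limma was 0.28 with the block and 0.042 with the random effect.

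EIF2AK4, known as GCN2, which senses uncharged tRNA, had 9.21, 8.14 and 8.16 in 5 nm cells, 9.46, 8.54 and 8.29 in 100 nm cells, and 9.46, 8.54 and 8.29 in control cells. The 100 nm and control arrays of a set were exactly equal, and the 5 nm array was lower in each set, with differences of -0.25, -0.40 and -0.13. The mean of EIF2AK4 was -0.26 (95% interval -0.425 to -0.10 with the block, adjusted p = 0.178 in limma with the block and 0.0505 with the random effect). EIF2AK1, the heme-regulated kinase, differed by -0.20, -0.27 and 0, and EIF2AK2, the double-stranded RNA kinase PKR, by -0.073, -0.27 and -0.0034.

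EEF2K, the kinase that inhibits eEF2, had 8.67, 7.36 and 7.87 in 5 nm cells, 8.75, 8.11 and 7.92 in 100 nm cells, and 8.78, 8.11 and 7.91 in control cells. Its differences of -0.10, -0.75 and -0.032 rested mainly on set 2. EIF4EBP2, a repressor of eIF4E, differed by -0.091, -0.37 and -0.0068, and its relative EIF4EBP1, itself a known ATF4 target, by 0, 0.21 and 0. Of the 7 kinases and binding proteins 4 were lower in all 3 sets, against 13.4% of all tested genes, and EIF2AK3 was higher in all 3. The median of the 7 was -0.16. Among all 54 members, 16 were higher and 6 lower in all 3 sets, against 8.03% and 13.4% of all tested genes. Exactly equal to control in every set were 3 members, against 2311 of 12155 tested genes.

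The 5 pseudogene, antisense and readthrough members had means from -0.089 in EIF3J-DT to 0.022 in EEF1AKMT4-ECE2. EIF1B-AS1, at -0.082, averaged a log2 intensity of 4.73, under the floor, where intensity is a poor measure of RNA. None of the 5 was higher or lower in all 3 sets.

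**Figure D3:**
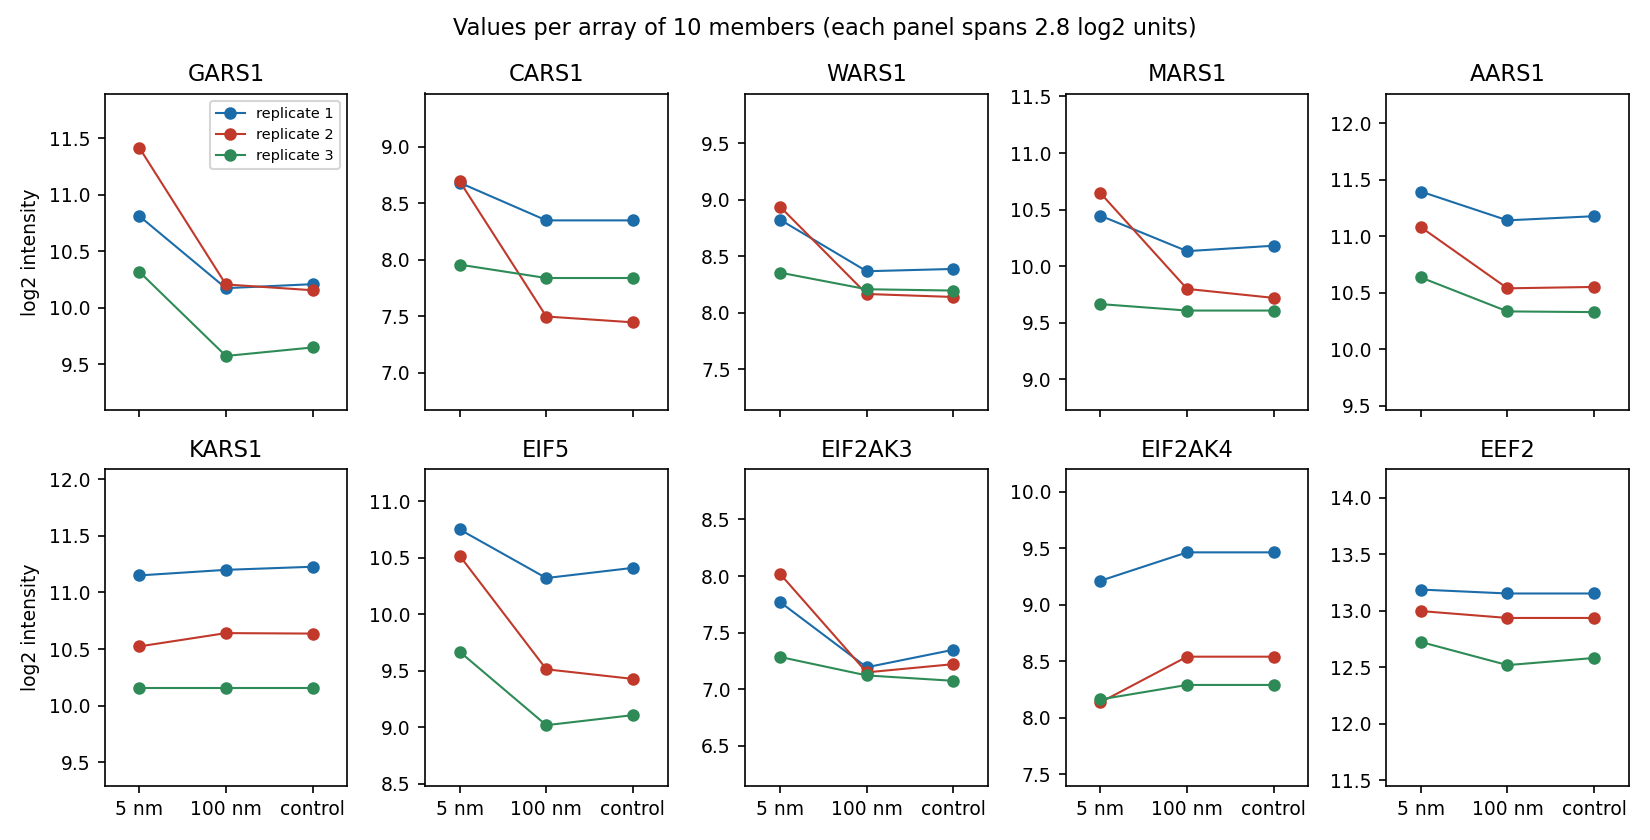
Log2 intensity on each of 9 arrays for 10 members, with 5 nm, 100 nm and control from left to right, lines joining the 3 arrays of a replicate number, and every panel spanning the same number of log2 units. Within each set the 5 nm array is the highest for GARS1, CARS1, WARS1, MARS1, AARS1, EIF5, EIF2AK3 and EEF2 and the lowest for EIF2AK4, while the 100 nm and control arrays lie close together.

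After 100 nm particles the members lay close to control. Mean differences of the 54 members ran from -0.06 to 0.04, and for all tested genes the 10th and 90th percentiles were -0.043 and 0.040. GARS1 differed by -0.035, 0.051 and -0.075, EIF5 by -0.09, 0.085 and -0.089, and EIF2AK3 by -0.15, -0.072 and 0.048. The sets thus went in both directions for each of these 3 genes. No member was higher in all 3 sets, against 1.25% of tested genes, and none was lower, against 1.41%. In limma 0 members passed an adjusted p of 0.05, against 0% of tested genes, 0 passed an unadjusted p of 0.05, against 0%, and 0 passed either limit with the block, against 0% adjusted and 0.271% unadjusted. In 11 members all 3 sets were exactly equal to control, against 3677 of 12155 tested genes.

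Set directly against 100 nm cells, the 5 nm cells gave nearly the same differences, which share the 5 nm arrays with the comparison above. GARS1 was higher by 0.64, 1.21 and 0.74, a mean of 0.86. The adjusted p of GARS1 in limma was 1 without the block, 0.117 with it and 0.00646 with the random effect. EIF5 was higher by 0.43, 1.00 and 0.65, AARS1 by 0.25, 0.54 and 0.30, and EIF2AK3 by 0.58, 0.87 and 0.16. EIF2D differed by -0.20, -0.16 and -0.26, with an adjusted p in limma of 0.0516 with the block and 0.00932 with the random effect.

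Of the 13 ATF4-driven synthetases, 10 were higher in 5 nm than in 100 nm cells in all 3 sets, against 8.04% of tested genes, with a median of 0.36. Of the 7 kinases and binding proteins 4 were lower in all 3 sets, against 13.0%. No member passed in limma without the block (0.0658% of tested genes did) or with it (0.617%). With the random effect 7 members passed, against 7.63%: the 6 above and EIF2AK4. At an unadjusted p under 0.05, 2 members (GARS1 and EIF2AK3) passed without the block, against 1.70%, and 10 with it, against 14.3%.

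**Figure D4:**
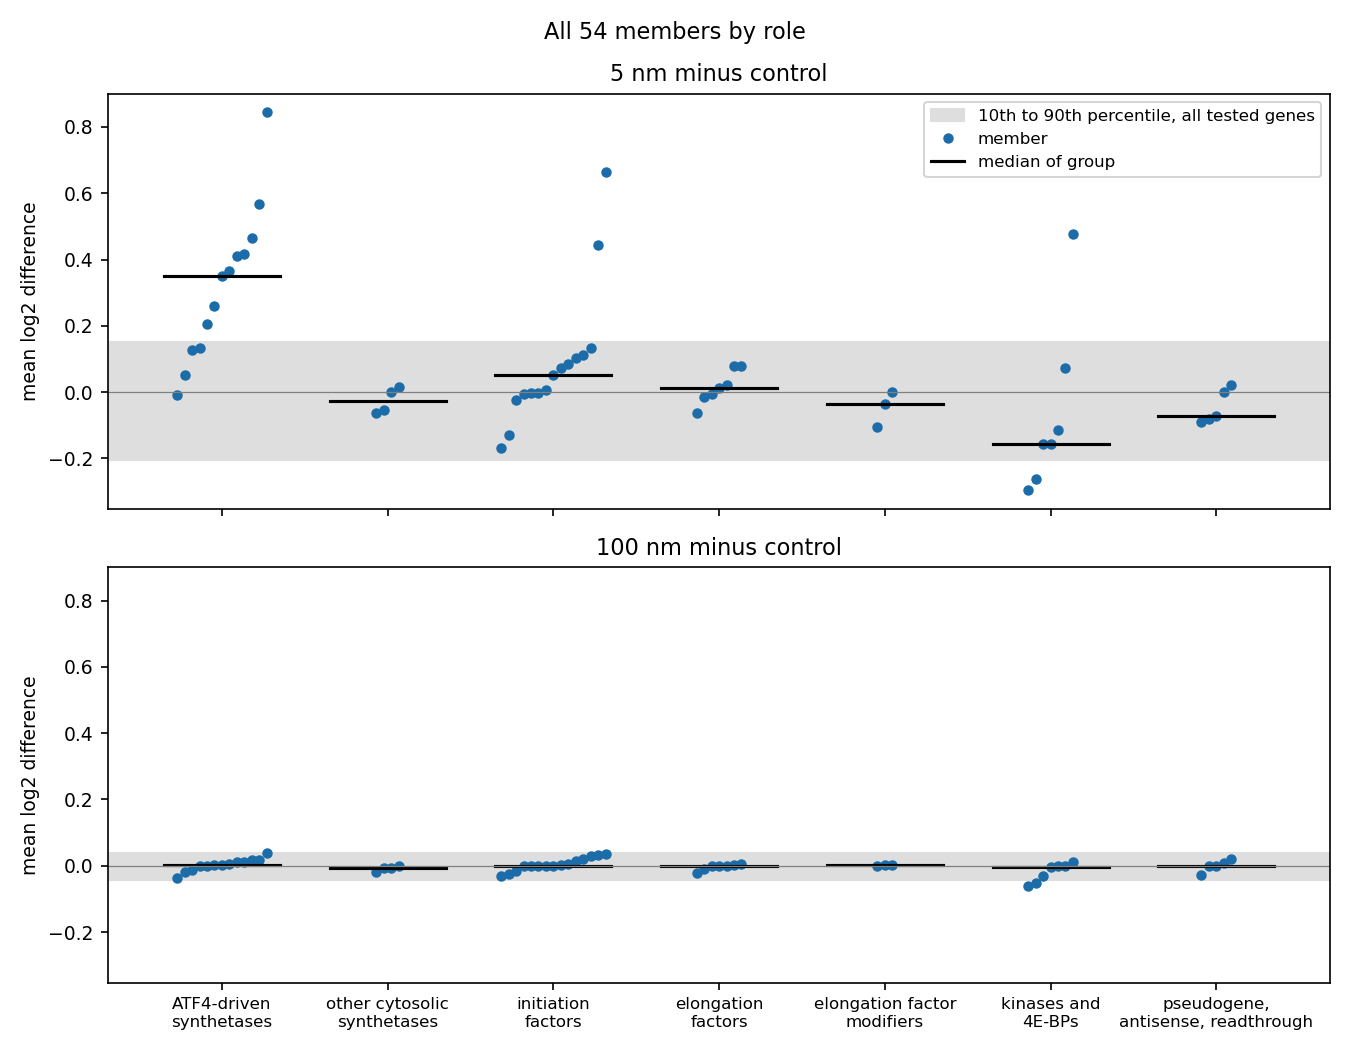
Mean log2 difference from control of all 54 members by role, after 5 nm particles above and 100 nm particles below; each point is a gene, the black line is the median of its group, and the grey band spans the 10th to 90th percentile of all tested genes. The ATF4-driven synthetases have a median of 0.35 after 5 nm particles, above the band (-0.21 to 0.15), while EIF5, EIF1AD and EIF2AK3 are the members of other groups above it.

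Known targets of ATF4 outside the family were set beside the synthetases. ATF4 mRNA itself was higher by 0.28, 0.46 and 0.22 in 5 nm cells, a mean of 0.32 (adjusted p = 1 in limma, 0.127 with the block). The largest mean differences of the list were 2.83 for DDIT3, the factor CHOP, 2.30 for SESN2, a leucine sensor, 1.59 for DDIT4, an inhibitor of mTORC1, and 1.39 for TRIB3, a pseudokinase. Of the other tested genes, ATF3 had a mean of 1.28, ASNS 0.64 and SHMT2 0.20. Means were close to 0 for PSAT1 (0.048), PHGDH (0.020) and PYCR1 (0.017), and negative for STC2 (-0.043), PSPH (-0.11) and ATF5 (-0.22). Of 27 listed genes of the integrated stress response 14 were tested. After 5 nm particles 11 were higher, against 35.9% of all tested genes, and 8 were so in all 3 sets, against 8.03%. None passed in limma with the block, where 0.650% of tested genes did, or without it, where 0.0740% did. Their median was 0.26 after 5 nm and -0.018 after 100 nm particles. Set 2 also held the largest difference of ATF4, DDIT4 (1.47, 2.91 and 0.41) and TRIB3 (1.07, 2.46 and 0.63).

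Markers of the line were checked on the same arrays. Of 13 endothelial markers 9 were tested, among them PECAM1, ICAM2 and ENG. Their summed intensity on the log2 scale was 13.50 to 14.02 in 5 nm cells, 13.81 to 14.13 in 100 nm cells and 13.81 to 14.13 in control cells. Of the 9, KDR, ICAM2 and ENG were lower in all 3 sets after 5 nm particles, against 13.4% of all tested genes. The list had a median of -0.15. Of 8 epithelial markers 7 were tested, with sums of 10.81 to 11.85 in 5 nm cells, 10.96 to 12.00 in 100 nm cells and 11.05 to 11.96 in control cells. Of the 7, KRT7 (-0.27, -0.39 and -0.31) and KRT8 (-0.49, -0.24 and -0.16) were lower in all 3 sets after 5 nm particles, against the same 13.4%. The epithelial list had a median of -0.0059. Of 6 leukocyte markers 2 were tested, CD14 and LYZ, with sums of 7.02 to 7.64 in 5 nm cells, 7.06 to 7.71 in 100 nm cells and 7.06 to 7.71 in control cells. These lists describe a single hybrid line and not separate cell types. On arrays no marker can be at 0, and fewer cells expressing a marker cannot be told apart from less of its RNA per cell. The part of these shifts in the results above was not tested.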

How the data were processed

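The authors deposited log2 intensities of 53617 probe sets, which per the submitters' processing notes came from RMA in version 1.3.1 of Affymetrix Expression Console. Each array took 300 ng of RNA, per the labels' protocols. Of these, 16098 probe sets had 1 gene symbol, updated through the Entrez identifier, and 37519 had none here. They covered 14884 genes, each taken as its probe set with the highest mean. Genes with a log2 value of at least 5 on 3 or more arrays were tested, which left 12155. Array medians were 5.15 to 5.64, and the number of arrays limits the precision.

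Differences were tested in R 4.3.3 with limma 3.58.1 (a linear model with moderated t on all 9 arrays, 6 residual degrees of freedom, no block, two-sided), with Benjamini-Hochberg adjustment over all tested genes. The replicate numbers in the labels pair the arrays. After removal of group means, r was 0.762 to 0.967 in the 9 pairs that share a number across groups. In the 18 pairs that do not it was -0.582 to -0.265, values that this removal itself pushes below 0. Among the arrays of other groups, 9 of 9 arrays had their best match within their own number. The values look as if the 3 arrays of a number had been normalized together, which no source used here states. With the number as a block, the fit has 4 residual degrees of freedom. Alternatives were a random block, only the groups compared, other filters, normalizations and probe set rules, a trend with a robust prior, and each array left out. Leaving out whole sets was added after seeing the data.

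Members and lists were chosen with earlier results of these data known. Named were all ATF4-driven synthetases, in each other group the 2 largest and 2 lowest differences after 5 nm particles, members past a threshold or differing by at least 0.3 in all 3 sets, and ATF4 with the 4 largest differences of the context lists. The other tested genes of the integrated stress response list were added after their values were seen. EIF4E, EIF4A3, EIF1, EIF2AK1, EIF2AK2, EIF4EBP2 and the other members named beyond this rule were chosen for their roles after their values were seen. Promoters came from RefSeq (GRCh38.p14), and no source used here gives the build of the array annotation.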

Additional observations from a re-analysis of the deposited data

How the results depend on the processing

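Without a block 9 genes passed after 5 nm particles, against 79 with the replicate block, 886 with a random replicate block, 15 with a stricter filter and 20 with quantile normalization. For 5 nm minus 100 nm the counts were 8 against 75, 927, 15 and 21, and 13 with a trend and robust prior. Member calls with the random block were 6 and 7, and with each array or set left out 0 to 3 in both comparisons. Leaving out arrays or sets, with or without the block, gave 0 to 446 calls after 5 nm particles, 0 to 449 for 5 nm minus 100 nm and 0 to 1 after 100 nm particles; the count of 0 came without all arrays of replicate 1 and the highest counts without the 5 nm array of replicate 3, with the block. The cause was not tested.

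Across all alternatives the median of the ATF4-driven synthetases after 5 nm particles kept its sign, at 0.16 to 0.54. Centring each array moved the median of other cytosolic synthetases to 0.0028, and to 0.0040 against 100 nm. It moved that of elongation factors to 0.044 and, against 100 nm, to 0.040, or 0.030 with quantile normalization. Signs turned for VARS1 (0.022 centred, 0.017 quantile), EEF1A1 (0.016 and 0.034), RARS1 (-0.026 quantile), EEF2 (-0.13) and EEF1AKMT2 (0.00059).

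Without the block, leaving out an array leaves the sets unbalanced. Signs of named members after 5 nm particles turned in 44 such values, and in 10 with the block kept, those of RARS1, EEF1A1, EIF4EBP1 and EIF1B-AS1 without arrays of replicate 2. With the block kept, the median of elongation factors ranged from -0.011 to 0.040. Medians that kept their sign ranged from 0.16 to 0.42 for ATF4-driven synthetases and -0.041 to -0.015 for other cytosolic synthetases. For initiation factors they were 0.011 to 0.084, and for kinases and binding proteins -0.23 to -0.041. Without the block, the median of all tested genes itself moved, from -0.17 without the 5 nm array of replicate 1 to 0.14 without the control array of replicate 1. Over all fits that left out arrays or sets, medians after 5 nm particles spanned -0.29 to 0.21 for other cytosolic synthetases, -0.056 to 0.19 for initiation factors, -0.14 to 0.20 for elongation factors and -0.35 to 0.088 for kinases and binding proteins. Against 100 nm cells the spans were -0.27 to 0.22, -0.049 to 0.19, -0.14 to 0.20 and -0.34 to 0.088 in the same order. After 100 nm particles they were -0.19 to 0.19 for ATF4-driven synthetases, -0.28 to 0.24 for other cytosolic ones, -0.15 to 0.17 for initiation factors, -0.16 to 0.15 for elongation factors and -0.25 to 0.25 for kinases and binding proteins. Single members whose sign turned spanned -0.10 to 0.40 (EPRS1), -0.16 to 0.28 (LARS1), -0.15 to 0.46 (NARS1), -0.032 to 0.46 (TARS1), -0.16 to 0.14 (VARS1), -0.33 to 0.21 (KARS1), -0.40 to 0.31 (QARS1), -0.25 to 0.28 (RARS1), -0.32 to 0.038 (EIF4ENIF1), -0.31 to 0.25 (EIF5A2), -0.077 to 0.066 (EEF1A1), -0.075 to 0.21 (EEF2), -0.16 to 0.26 (EIF5A), -0.41 to 0.16 (EEF1AKMT3), -0.23 to 0.19 (EEF1AKMT2), -0.65 to 0.0085 (EEF2K), -0.61 to 0.088 (EIF2AK4, also against 100 nm), -0.26 to 0.44 (EIF4EBP1), -0.30 to 0.19 (EIF1B-AS1) and -0.096 to 0.15 (EEF1AKMT4-ECE2). Probe sets near the floor limit what EIF1B-AS1 and EIF4E3 can show.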

Other observations

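Several cytosolic synthetases are held with AIMP scaffolds in a multi-synthetase complex, and the others lie outside it. Measured members of the complex were EPRS1, IARS1, KARS1, LARS1, MARS1, QARS1 and RARS1. This division was made after the values were seen and was not tested. The 7 measured members of the complex had a median log2 difference of 0.050 after 5 nm particles (-0.063 to 0.42), and 3 of the 7 were higher in all 3 sets. The 10 synthetases outside the complex had a median of 0.36 (-0.0081 to 0.84), and 8 of the 10 were higher in all 3 sets. The division overlaps with the grouping by ATF4, since KARS1, QARS1 and RARS1 lie in the complex and HARS1 is the only one of the 4 other synthetases outside it. Among ATF4-driven enzymes alone, the 4 in the complex had a median of 0.19 (0.050 to 0.42) with 3 higher in all 3 sets, and the 9 outside it a median of 0.37 (-0.0081 to 0.84) with 8 higher in all 3 sets.

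Outside the family, 265 tested genes held the response element motif in a promoter, and 33 of them (12.5%) were higher in all 3 sets after 5 nm particles. Of 8869 tested genes outside the family with a promoter and no motif, 718 (8.10%) were. The median difference was 0 in both groups, and no test was made. Among ATF4-driven synthetases the motif did not separate the larger from the smaller differences: the 7 with a match had a median of 0.35 and the 3 with a promoter and no match 0.41, and all 10 were higher in all 3 sets.

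A second, dimmer probe set of EIF4B, an activator of the eIF4A helicase, differed by -0.46, -0.078 and -0.053, while the brighter one differed by 0, 0 and -0.0060.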
